A study of Mus musculus with 8 samples.

Results

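The 5 subunits of the transcription factor NF-κB (Rela, Rel, Nfkb1, Relb and Nfkb2) and its feedback inhibitors Nfkbia and Tnfaip3 were followed by gene symbol in single-cell RNA-seq of mouse thymocytes. All 7 symbols were found among the 15653 genes of the deposited tables. The study compared double-negative thymocytes, which carry neither CD4 nor CD8, of GSK3B Ser389Ala KI mice and of WT C57BL/6J mice at the DN4 and DN3 stages. The knock-in (KI) replaces a serine of the kinase GSK3β with alanine. The 4 groups were KI DN4, WT DN4, KI DN3 and WT DN3, each a single library. Thymocytes had first been depleted with antibodies to MHC class II, CD11b, CD4, CD8 and kappa light chain and then sorted, DN4 cells as CD44- CD25- and DN3 cells as CD44- CD25+. Lineages that these antibodies do not mark, such as γδ T cells, could remain in the sort. The age and sex of the mice, and whether animals were pooled, are not given in the sources used here.

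NF-κB acts as a dimer of its subunits. In resting cells IκBα, the product of Nfkbia, holds dimers in the cytoplasm. Signals from antigen receptors, the pre-TCR or TNF-family receptors activate the IKK complex, IκBα is degraded, and dimers of RelA or c-Rel with p50 enter the nucleus, where they induce Nfkbia and Tnfaip3 among other genes. A20, the product of Tnfaip3, edits ubiquitin chains on upstream adaptors and so limits IKK activity. In the alternative pathway the Nfkb2 precursor p100 is processed to p52, which pairs with RelB. In the thymus, NF-κB activity downstream of the pre-TCR is known to favour survival of cells that pass from DN3 to DN4.

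Because both feedback inhibitors are known targets of the factor that they restrain, the 250 bases upstream of their start sites are shown, on the strand of the gene, with matches to NF-κB motifs in capitals. They are RefSeq sequences of the GRCm38.p6 build, at chr12:55492648-55492897 on the minus strand for Nfkbia and at chr10:19015411-19015660 on the minus strand for Tnfaip3.
Nfkbia: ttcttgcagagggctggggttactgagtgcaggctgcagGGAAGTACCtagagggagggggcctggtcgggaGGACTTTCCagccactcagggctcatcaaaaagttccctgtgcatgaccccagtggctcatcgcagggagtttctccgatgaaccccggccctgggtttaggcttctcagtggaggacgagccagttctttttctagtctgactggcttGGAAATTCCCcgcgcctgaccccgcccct
Tnfaip3: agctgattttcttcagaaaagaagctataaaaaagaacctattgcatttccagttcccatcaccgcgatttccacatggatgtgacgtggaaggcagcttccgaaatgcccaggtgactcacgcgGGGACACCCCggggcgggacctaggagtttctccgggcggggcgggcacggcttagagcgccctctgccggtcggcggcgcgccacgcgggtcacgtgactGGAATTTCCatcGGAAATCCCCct
The NF-κB consensus, searched on both strands, matched once in the Nfkbia sequence, at position -29 from the start, and at positions -125 and -12 in the Tnfaip3 sequence. The shorter pattern GGNNNTTCC, whose matches can overlap those of the consensus, gave the other capitals. Of the 32851 RefSeq promoter windows of this length, 3.90% held the consensus and 15.7% held the shorter pattern.

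Rel and Nfkb2 also held matches, shown with their flanks at chr11:23771044-23771069 on the minus strand for Rel and at chr19:46304690-46304715 and chr19:46305697-46305722 on the plus strand for Nfkb2, which has several annotated starts.
Rel: taagcagcGGGAAATCCCcccccctc
Nfkb2, first window: atcgtcacGGGAATTCCCcccctcgg
Nfkb2, second window: gtattttcGGGACTTTCCtaagcagc
The window upstream of Rela held neither motif. Nfkb1 and Relb had no entry among the RefSeq promoters, so 5 of the 7 members were searched. A second annotated start of Tnfaip3, with its window at chr10:19011964-19012213, had no consensus match and 1 match to the shorter pattern, at -89. A match is a stretch of letters in these windows and was not measured as a binding site. The genes lie on GRCm38 at chr19:5637442-5648134 (Rela), chr11:23736847-23770969 (Rel), chr3:135584655-135691969 (Nfkb1), chr7:19606217-19629438 (Relb), chr19:46300994-46312400 (Nfkb2), chr12:55489409-55492647 (Nfkbia) and chr10:19000910-19015410 (Tnfaip3).

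The 4 libraries held 10237 cells with 717 to 46885 UMIs each, where a UMI counts 1 captured transcript. The UMIs per library ran from 16411164 to 30402236, with medians of 9345, 7121, 5495 and 5927 UMIs per cell in KI DN4, WT DN4, KI DN3 and WT DN3. Levels are given as CPM (counts per 1e+06 UMIs), the UMIs of a gene summed over the cells of a library or cluster and divided by all UMIs of those cells. With 1 library per group there was no replicate, so no p-value or spread between animals could be had, and the 95% intervals below are exact Poisson intervals that cover counting error only. A gene was called higher or lower where it reached 20 CPM in at least 1 of the libraries compared, differed 1.5-fold or more and had an interval that excluded no change. Il2ra, which encodes CD25, stood at 3.75 CPM in KI DN4 and 3.84 CPM in WT DN4, against 425 CPM in KI DN3 and 478 CPM in WT DN3, as the sort had set it. Cd4 reached 2.99 CPM at most and Cd44 reached 1.22 CPM at most, but Cd8b1, a CD8 chain gene, stood at 136 CPM in KI DN4 and 160 CPM in WT DN4 beside 6.15 CPM in KI DN3 and 4.64 CPM in WT DN3. Gsk3b was measured at 74.2, 93.8, 90.6 and 107 CPM in KI DN4, WT DN4, KI DN3 and WT DN3, which does not show the amino acid change and so does not check the genotype labels. Library pairs shared 3 to 17 cell barcodes. Cells are grouped below by the authors' deposited clusters, called by number, since several carried leading genes of more than 1 lineage.

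Tnfaip3, the gene of A20, was the member that differed most between the genotypes, and it was lower in KI at both stages. It had 66.7 CPM in KI DN4 against 109 CPM in WT DN4, and 78.6 CPM in KI DN3 against 122 CPM in WT DN3. Both WT libraries were above both KI libraries, whatever the stage. The log2 ratio of KI to WT was -0.70 (interval -0.80 to -0.61) in DN4, which is 1.63-fold lower, and -0.64 (-0.72 to -0.55) in DN3, which is 1.55-fold lower. Tnfaip3 was called lower in both comparisons and was the 1 member called in either, of the 5 that reached 20 CPM in each. Among all genes tested, 4.01% were called lower and 0.536% higher in KI DN4, and 2.16% lower and 0.811% higher in KI DN3. With TMM scaling, which moved the all-gene median in DN4 to 0.07 and the calls there to 137 lower and 82 higher, against 224 and 30 without it, the Tnfaip3 ratio was -0.59. Relative to the all-gene median of its own comparison, Tnfaip3 stood at -0.66 in DN4 and -0.64 in DN3. Where each cell was given equal weight, the ratios were -0.55 in DN4 and -0.58 in DN3, just under 1.5-fold.

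**Figure D1:**
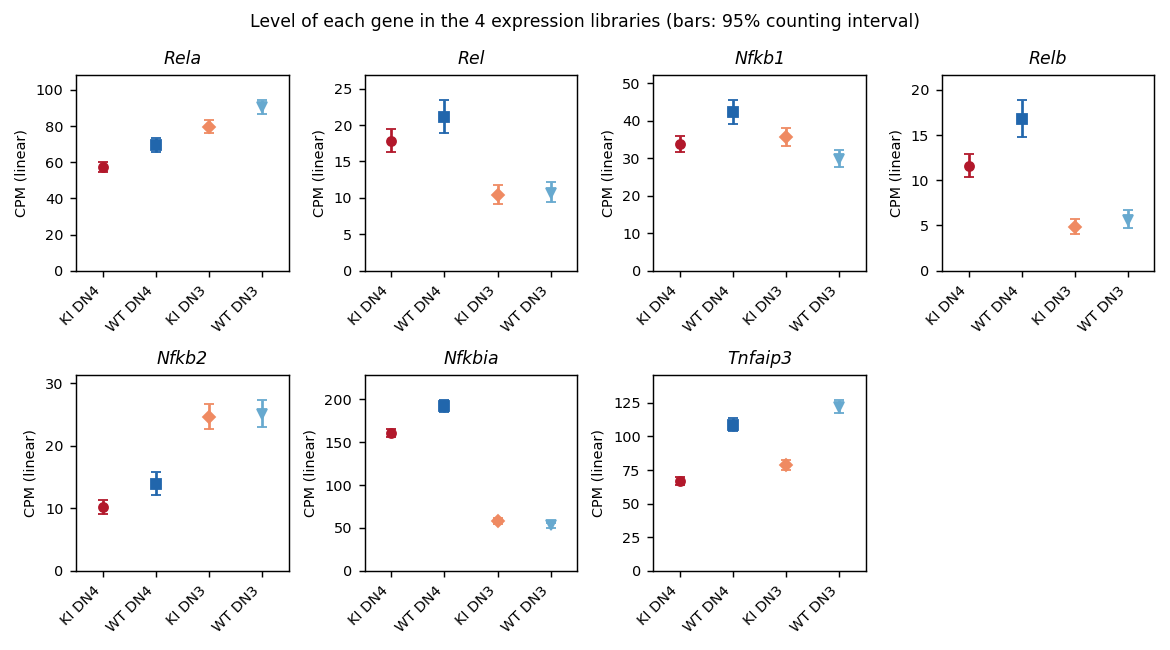
Levels of the 7 genes in CPM (linear axis) in the KI DN4, WT DN4, KI DN3 and WT DN3 libraries, 1 library each, with 95% counting intervals. Tnfaip3 lies below its WT value in both KI libraries, and Nfkbia separates the stages, at 160 and 192 CPM in the DN4 libraries against 58.1 and 53.3 CPM in the DN3 libraries.

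The other feedback inhibitor, Nfkbia, did not share this pattern. It had 160 CPM in KI DN4 against 192 CPM in WT DN4, a log2 ratio of -0.26 (-0.32 to -0.19). In DN3 it had 58.1 CPM in KI against 53.3 CPM in WT, a log2 ratio of 0.13 (0.02 to 0.24). Neither difference reached 1.5-fold. The 2 inhibitor genes thus differed in how far KI lay from WT within the same libraries.

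The subunits differed less between genotypes than Tnfaip3, and none was called. Rela, the main transactivating subunit, had 57.4 CPM in KI DN4 against 69.5 CPM in WT DN4, and 79.7 CPM in KI DN3 against 90.4 CPM in WT DN3. Its log2 ratios were -0.28 (-0.39 to -0.17) in DN4 and -0.18 (-0.27 to -0.09) in DN3. Nfkb1, which encodes p105 and p50, lay on opposite sides of WT at the 2 stages. It had 33.7 CPM in KI DN4 against 42.2 CPM in WT DN4, and 35.7 CPM in KI DN3 against 29.8 CPM in WT DN3, with log2 ratios of -0.32 (-0.46 to -0.18) and 0.26 (0.12 to 0.41).

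Rel, Relb and Nfkb2 had fewer counts, and their intervals are wider. Rel, the gene of c-Rel, had 17.8 CPM in KI DN4 and 21.1 CPM in WT DN4, against 10.4 CPM in KI DN3 and 10.7 CPM in WT DN3. Relb, the partner of p52, had 11.6 CPM in KI DN4 against 16.8 CPM in WT DN4, and 4.82 CPM in KI DN3 against 5.61 CPM in WT DN3. Relb was under 20 CPM in every library, so it could not be called. Nfkb2 had 10.2 CPM in KI DN4 against 14.0 CPM in WT DN4, and 24.6 CPM in KI DN3 against 25.1 CPM in WT DN3. The log2 ratios of KI to WT in DN4 were -0.24 for Rel, -0.53 for Relb and -0.45 for Nfkb2, and in DN3 they were -0.05, -0.22 and -0.03. All 7 members were therefore lower in KI DN4 than in WT DN4, where the median log2 ratio of all genes tested was -0.05. Of those 5592 genes, 2120 had an interval below no change and 1403 an interval above it. Relb and Nfkb2 were under 20 CPM in both DN4 libraries. With clusters 2, 5 and 7 left out, a step described below, Rel, Nfkb1 and Nfkbia had ratios of 0.09, 0.02 and 0.01.

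Between the stages the order of the genes was different. Nfkbia was higher in DN4 than in DN3, with log2 ratios of 1.46 (1.38 to 1.55) in KI and 1.85 (1.75 to 1.94) in WT, which are 2.76-fold and 3.60-fold. Nfkb2 was lower in DN4, with log2 ratios of -1.27 (-1.47 to -1.07) in KI and -0.85 (-1.08 to -0.62) in WT. Both were called in both genotypes. Rel had log2 ratios of 0.78 (0.565 to 0.998) in KI and 0.97 (0.73 to 1.22) in WT and was called higher in WT, while in KI it stayed under 20 CPM at both stages. Of the 7, 5 members reached 20 CPM in KI and 6 in WT. In KI 1 member was called higher and 1 lower, against 7.37% and 13.2% of all genes tested, which were 429 higher and 766 lower calls, or 572 and 559 with TMM scaling. In WT 2 members were called higher and 1 lower, against 8.55% and 10.7% of all genes.

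The remaining subunits and Tnfaip3 were not called between stages. Relb had log2 ratios of 1.26 (0.96 to 1.57) in KI and 1.58 (1.27 to 1.89) in WT, at levels under 20 CPM. Rela had log2 ratios of -0.47 in KI and -0.38 in WT, and Tnfaip3 had -0.24 in KI and -0.17 in WT, or 0.36 and 0.33 where each cell was given equal weight. For Nfkb1 the ratio was -0.08 (-0.21 to 0.05) in KI, or 0.04 with TMM scaling, and 0.51 (0.35 to 0.66) in WT. The DN4 and DN3 levels of Nfkb1 were thus within counting error of each other in KI. The KI libraries enter both the genotype and the stage comparisons, as do the WT libraries, so these values are not independent of each other.

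The deposited clusters separated the 7 genes further. Of the KI DN3 cells 73.2% lay in cluster 0, and of the WT DN3 cells 74.4% lay in cluster 1, which shared markers of DN3 cells before selection for a TCRβ chain, and the 2 are pooled below. Clusters 3 and 4 held cells of all 4 libraries and were led by Cd8b1 and by cell cycle genes. Clusters 2 and 5 held almost only DN4 cells, and cluster 7, with 111 cells, held mostly DN4 cells. Cluster 2 carried γδ T cell genes such as Trdc, Sox13 and Maf together with Ccr7 and S1pr1, and cluster 5 carried genes of NK, innate lymphoid or NKT cells together with those of mature αβ T cells.

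**Figure D2:**
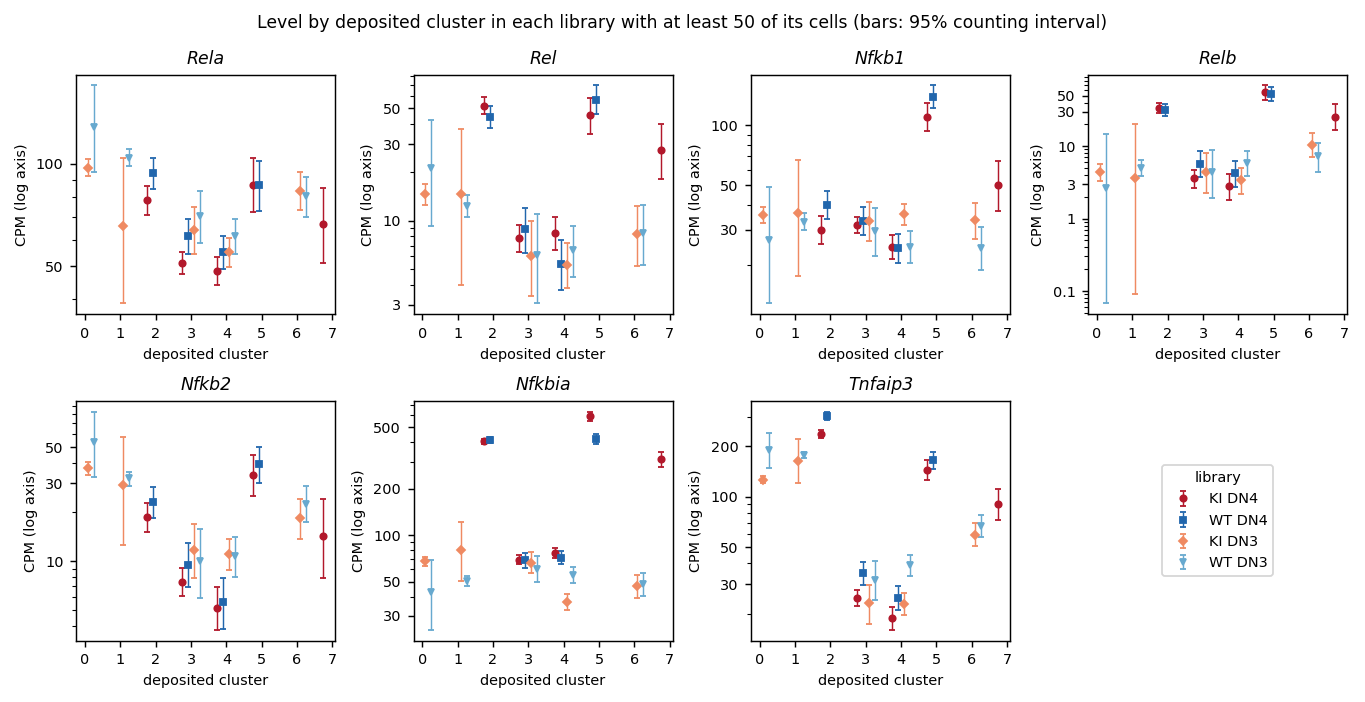
Levels of the 7 genes in CPM (log axis) in each deposited cluster, 1 point for each library with at least 50 cells there, with 95% counting intervals. Nfkbia, Rel and Relb are highest in clusters 2 and 5, and Tnfaip3 is lowest in clusters 3 and 4. Clusters 8 and 9 had fewer than 50 cells in every library and are not drawn.

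Over all cells of a cluster, Nfkbia had 498 CPM in cluster 5, 410 CPM in cluster 2 and 285 CPM in cluster 7, against 48.1 to 68.3 CPM in clusters 0, 1, 3, 4 and 6. The intervals of clusters 5, 2 and 7 did not overlap each other. Clusters 8 and 9, with 88 and 72 cells, had 271 and 139 CPM. Nfkbia was thus several times more abundant in clusters 2, 5 and 7 than in clusters 0, 1, 3, 4 and 6, although clusters 3 and 4 also held more DN4 than DN3 cells.

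Tnfaip3 followed another order. It had 547 CPM in cluster 8, 264 CPM in cluster 2, 176 CPM in cluster 1, 156 CPM in cluster 5 and 128 CPM in cluster 0. It had 76.7 CPM in cluster 7, 64.0 CPM in clusters 9 and 6, 27.2 CPM in cluster 3 and 24.8 CPM in cluster 4. Clusters 1 and 5 overlapped in their intervals, as did clusters 7, 9 and 6 and clusters 3 and 4. A20 transcripts were therefore abundant both in the DN3 clusters 0 and 1 and in cluster 2, while Nfkbia was low in clusters 0 and 1. Cluster 8, the highest for Tnfaip3, had a median of 1665 UMIs per cell. The genes furthest above the other cells there were C1ql3, Trav4-3 and Nfkbiz, at 32.2, 25.8 and 187 CPM. In cluster 8, 6 UMIs of Nfkb2 came to 38.6 CPM, so the C1ql3 and Trav4-3 values rest on fewer UMIs than that and do not name the cluster. Nfkbiz encodes the inducible nuclear IκB protein IκBζ.

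Rel, the gene of c-Rel, had 148 CPM in cluster 8, 51.5 CPM in cluster 5 and 48.6 CPM in cluster 2, against 6.55 to 23.1 CPM in the other clusters. Relb had 53.8 CPM in cluster 5, 45.1 CPM in cluster 8, 32.8 CPM in cluster 2 and 26.2 CPM in cluster 7, and 3.83 to 9.06 CPM elsewhere. Its cluster 8 value rested on 7 UMIs, with an interval of 18.1 to 92.9. Both genes were thus highest in clusters 2, 5, 7 or 8. Nfkb1 was highest in cluster 5, with 126 CPM (interval 114 to 139), against 27.6 to 83.7 CPM in the others. The 83.7 CPM was that of cluster 8, on 13 UMIs, and its interval of 44.6 to 143 overlaps that of cluster 5. Nfkb2, the gene of p100, had 37.5 CPM in cluster 0, 32.0 CPM in cluster 1 and 36.8 CPM in cluster 5, against 8.52 CPM in cluster 3 and 7.86 CPM in cluster 4. Rela varied least over the larger clusters, with 54.0 to 104 CPM in clusters 0 to 7 and 187 CPM in cluster 8.

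Most of the inhibitor transcripts of DN4 came from cells outside the large cycling clusters. Clusters 2, 5 and 7 gave 73.9% of the Tnfaip3 UMIs of KI DN4 and 80.1% of those of WT DN4, although they gave 24.7% and 35.0% of the UMIs of all genes. For Nfkbia the shares were 65.9% in KI DN4 and 75.6% in WT DN4, and for Rel they were 65.9% and 76.6%. Relb stood at 77.8% and 79.3%, and Nfkb1, with its high level in cluster 5, at 35.0% and 55.8%. These clusters were a smaller part of the KI DN4 library, with 53.5% of its cells against 63.7% of WT DN4 cells.

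**Figure D3:**
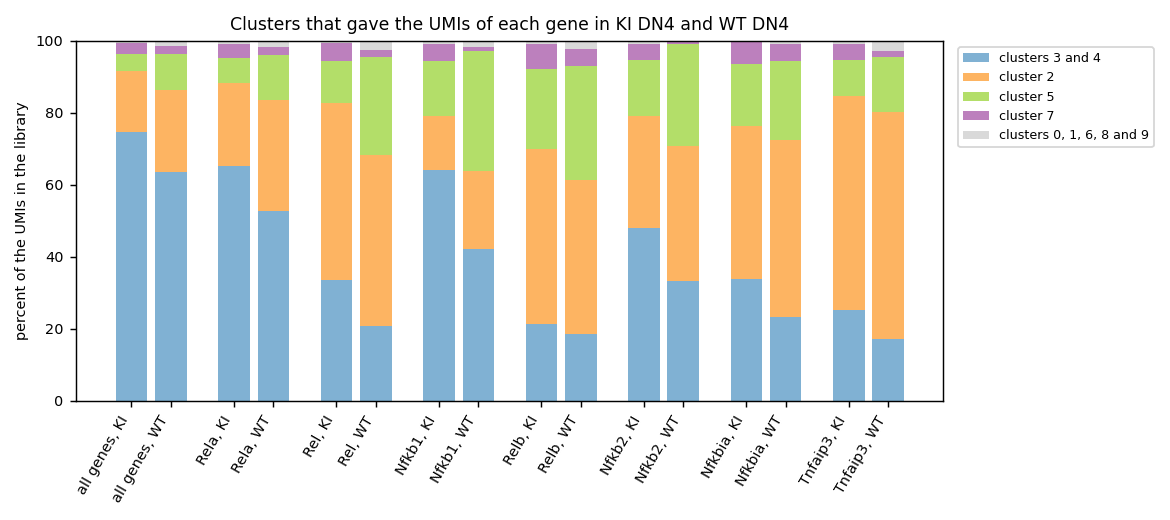
Share of UMIs (percent) that came from each deposited cluster in KI DN4 and WT DN4, for all genes together and for each of the 7 genes. Clusters 3 and 4 gave 74.8% of all UMIs in KI DN4 and 63.6% in WT DN4, while cluster 2 alone gave 59.5% and 63.2% of the Tnfaip3 UMIs.

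The make-up of the DN4 libraries therefore moved together with the genotype. Weighting the WT clusters by the UMI shares of KI DN4 gave 85.6 CPM for Tnfaip3, between the 66.7 CPM measured in KI DN4 and the 109 CPM measured in WT DN4. The same weighting gave 154 CPM for Nfkbia, below the 160 CPM measured in KI DN4 and the 192 CPM measured in WT DN4. For Rel it gave 16.4 CPM, against 17.8 CPM measured in KI DN4 and 21.1 CPM in WT DN4. With clusters 2, 5 and 7 left out, the log2 ratio of KI to WT in DN4 was -0.53 (-0.72 to -0.33) for Tnfaip3, at 23.1 CPM in KI against 33.3 CPM in WT, which is under 1.5-fold, and 0.01 (-0.11 to 0.14) for Nfkbia. Rel then had a ratio of 0.09, Nfkb1 0.02 (-0.18 to 0.22) and Rela -0.21 (-0.35 to -0.07). Among all genes, 2.38% were called lower in that comparison.

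Marker lists of other lymphocytes moved in the same direction. Among all genes tested in DN4, 4.01% were called lower in KI and 0.536% higher. Of 10 γδ T cell markers, 8 could be measured and 5 were called lower in KI DN4, with a median log2 ratio of -0.72 and a summed level of 469 CPM in KI DN4 against 669 CPM in WT DN4. Of 9 mature αβ T cell markers, 2 were called lower, with 737 CPM against 975 CPM summed, and of 12 NK, innate lymphoid and NKT markers 4 were measured and 2 were called lower, with 1320 CPM against 1412 CPM summed. Il23r of the γδ list was at 0 in WT DN4. All 10 cell cycle markers were measured, with a median of 0.42 and 1 called higher, and summed to 1739 CPM in KI DN4 against 1325 CPM in WT DN4. In bulk sums such as these, fewer cells of a type and less RNA per cell cannot be told apart, and beyond the cluster values given here the part of these markers in the library ratios was not tested.

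For the comparison of genotypes within clusters, cluster 0 was pooled with cluster 1 and cluster 3 with cluster 4, which left 6 comparisons with at least 50 cells on both sides. The Tnfaip3 level was below WT in all 6. In clusters 0 and 1 of DN3, which gave 79.5% of the Tnfaip3 UMIs of KI DN3 and 81.9% of those of WT DN3, it had 127 CPM in KI against 177 CPM in WT, a log2 ratio of -0.47 (-0.57 to -0.38). That pool sets cluster 0, nearly all KI, beside cluster 1, nearly all WT. In cluster 0 alone, Tnfaip3 had 126 CPM (interval 120.3 to 133) in 2415 KI cells against 190 CPM (148 to 239) in 109 WT cells. In cluster 1 alone it had 164 CPM (119.9 to 220) in 54 KI cells against 176 CPM (169 to 184) in 2146 WT cells, which is within counting error. In clusters 3 and 4 of DN3 it had 23.0 CPM in KI against 37.0 CPM in WT, a ratio of -0.69 (-0.96 to -0.42), and was called lower, as were 1.97% of all genes there. In cluster 6 of DN3 it had 59.4 CPM in KI against 66.8 CPM in WT, a ratio of -0.17 (-0.48 to 0.14) whose interval includes no change. The DN3 difference was thus beyond counting error in cluster 0 and in clusters 3 and 4, and within it in clusters 1 and 6.

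In DN4 the Tnfaip3 difference was beyond counting error in 2 of 3 cluster comparisons. In clusters 3 and 4 Tnfaip3 had 22.5 CPM in KI against 29.2 CPM in WT, a log2 ratio of -0.38 (-0.59 to -0.17). In cluster 2 it had 236 CPM in KI against 303 CPM in WT, a ratio of -0.36 (-0.48 to -0.25). In cluster 5 it had 145 CPM in KI against 165 CPM in WT, a ratio of -0.19 (-0.45 to 0.08). None of these reached 1.5-fold, and each was smaller than the -0.70 of the whole DN4 libraries. No member was called in these 3 DN4 comparisons, where 2.84%, 4.92% and 7.7% of all genes were called in either direction.

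**Figure D4:**
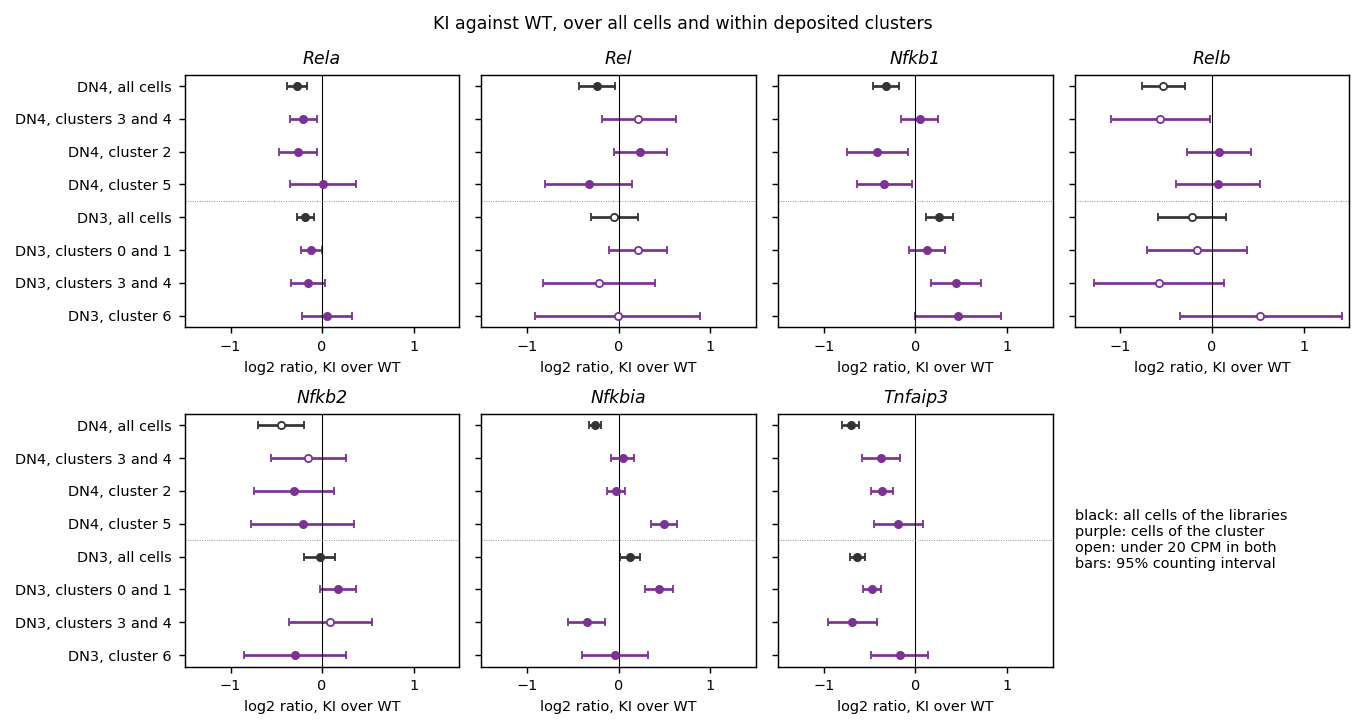
Log2 ratio of KI to WT for each gene, in the whole DN4 and DN3 libraries and in the deposited clusters with at least 50 cells per library, with 95% counting intervals; open symbols mark genes under 20 CPM in both. Tnfaip3 is below 0 throughout, from -0.17 to -0.70, while Nfkbia and Nfkb1 lie on both sides of 0.

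Nfkbia had no shared direction over clusters. In clusters 0 and 1 of DN3 it had 68.3 CPM in KI against 50.3 CPM in WT, a log2 ratio of 0.44 (0.29 to 0.59). In clusters 3 and 4 of DN3 it had 44.5 CPM in KI against 56.7 CPM in WT, a ratio of -0.35 (-0.55 to -0.15). Taken alone, cluster 3 had 66.3 CPM in KI DN3 against 60.7 CPM in WT DN3, and cluster 4 had 37.1 CPM against 55.2 CPM. In cluster 5 of DN4 it had 590 CPM in KI against 419 CPM in WT, a ratio of 0.49 (0.35 to 0.64). In cluster 2 and in clusters 3 and 4 of DN4 the ratios were -0.03 (-0.13 to 0.06) and 0.04 (-0.08 to 0.17), which is within counting error. No Nfkbia ratio in these comparisons reached 1.5-fold. Cluster 0 was made up almost wholly of KI DN3 cells and cluster 1 of WT DN3 cells. In cluster 0 alone, Nfkbia had 68.0 CPM (63.5 to 72.8) in KI against 42.8 CPM (24.4 to 69.4) in WT, and in cluster 1 alone it had 80.4 CPM (50.4 to 122) in KI against 50.5 CPM (46.7 to 54.6) in WT. Its level was thus higher in KI in both, with intervals that overlap.

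The subunits were not called in any of the 6 cluster comparisons. Nfkb1 had 35.2 CPM in KI against 26.0 CPM in WT in clusters 3 and 4 of DN3, a log2 ratio of 0.44 (0.17 to 0.71). Cluster 4 alone had 35.9 CPM (31.7 to 40.5) in KI DN3 against 24.6 CPM (20.4 to 29.5) in WT DN3. Cluster 3 alone had 33.2 CPM (26.4 to 41.2) against 29.5 CPM (22.1 to 38.6), with intervals that overlap. In cluster 5 of DN4 Nfkb1 had 110 CPM in KI against 140 CPM in WT, a ratio of -0.34 (-0.64 to -0.04). Rela had 96.8 CPM in KI against 105 CPM in WT in clusters 0 and 1, a ratio of -0.12 (-0.23 to -0.01), and 78.3 CPM in KI against 93.9 CPM in WT in cluster 2, a ratio of -0.26 (-0.47 to -0.05). Rel in cluster 2 had 51.9 CPM in KI against 44.1 CPM in WT, a ratio of 0.24 (-0.05 to 0.52). The lowest Nfkb1 ratio was -0.41, in cluster 2 of DN4, with 30.1 CPM in KI against 40.1 CPM in WT. Over the 6 comparisons Nfkb1 lay above WT in 4 and below it in 2, with intervals that excluded no change in 1 and 2 of them. Rela lay below WT in 4, with intervals that excluded no change in 3, and above it in 2. Of all genes, 3.3% were called in clusters 0 and 1, 2.69% in clusters 3 and 4 of DN3 and 4.98% in cluster 6.

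The stage difference of Nfkbia was smaller among cells of the clusters that both stages share. Inside clusters 3 and 4, which both stages share, Nfkbia had 72.5 CPM in KI DN4 against 44.5 CPM in KI DN3, a log2 ratio of 0.70 (0.55 to 0.86), and was called higher, as were 1.83% of genes. In WT it had 70.3 CPM in DN4 against 56.7 CPM in DN3, a ratio of 0.31 (0.13 to 0.49), and was not called, while 1.36% of genes were called higher. The pool mixes the 2 clusters in unlike parts at the 2 stages. Cluster 3 alone had 69.6 CPM in KI DN4 against 66.3 CPM in KI DN3, and 68.7 against 60.7 CPM in WT, with overlapping intervals. Cluster 4 alone had 77.1 CPM (71.4 to 83.1) in KI DN4 against 37.1 CPM (32.9 to 41.8) in KI DN3. In WT cluster 4 had 71.6 CPM (65.0 to 78.8) in DN4 against 55.2 CPM (48.7 to 62.3) in DN3. With clusters 2, 5 and 7 left out of both stages, the ratios of the whole libraries were 0.33 in KI and 0.43 in WT. The same step gave ratios of -0.36 in KI and -0.49 in WT for Rel, on the other side of 0 from those of the whole libraries, and -1.77 in KI and -1.88 in WT for Tnfaip3. It leaves mostly clusters 3 and 4 in DN4 and mostly clusters 0 and 1 in DN3, so it sets unlike cells side by side. Inside clusters 3 and 4, Rel had 8.01 CPM in KI DN4 against 5.51 CPM in KI DN3, and 6.90 CPM in WT DN4 against 6.42 CPM in WT DN3. Tnfaip3 there had 22.5 CPM in KI DN4 against 23.0 CPM in KI DN3, a ratio of -0.03 (-0.26 to 0.20), and 29.2 CPM in WT DN4 against 37.0 CPM in WT DN3, a ratio of -0.34 (-0.59 to -0.09).

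In clusters 3 and 4 the deposited cell cycle phases gave a further view. Nfkbia had 88.4 CPM in G2M cells and 62.5 CPM in S cells of KI DN4, and 86.5 and 61.4 CPM in those of WT DN4. In DN3 it had 49.9 CPM in G2M and 40.8 CPM in S cells of KI, and 65.1 and 51.8 CPM in those of WT. It was thus higher in G2M than in S cells in all 4 libraries, with intervals that overlapped in both DN3 libraries and not in the DN4 libraries. Nfkb2 was lower in G2M in all 4, with 4.51 and 7.39 CPM in KI DN4 and 4.77 and 8.26 CPM in WT DN4. Its G2M values rested on 15 to 34 UMIs, and its G2M and S intervals overlapped in every library. Tnfaip3 showed no shared order, with 22.0 CPM in G2M and 22.1 CPM in S cells of KI DN4 and 25.8 and 27.2 CPM in those of WT DN4, but 24.0 and 22.3 CPM in those of KI DN3 and 40.3 and 35.4 CPM in those of WT DN3.

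Cells of DN3 clusters could also be split by whether a productive TCRβ (TRB) contig had been found. Such a contig shows a rearranged TCRβ chain, not that the cell had passed β-selection, and finding it depends on contig recovery. In cluster 6, Nfkbia had 39.8 CPM in 198 KI cells with a TRB contig and 60.9 CPM in 92 KI cells without, a log2 ratio of -0.61 (-1.13 to -0.09). In WT it had 39.0 CPM in 173 cells with TRB and 73.1 CPM in 70 cells without, a ratio of -0.91 (-1.42 to -0.38). It was called lower with TRB in both genotypes, where 4.74% of genes in KI and 4.17% in WT were called lower. In clusters 0 and 1 the Nfkbia ratios were -0.01 (-0.48 to 0.42) in KI and -0.50 (-1.04 to -0.01) in WT. Tnfaip3 in those clusters had 92.7 CPM in 118 KI cells with TRB and 129 CPM in 2351 KI cells without, a ratio of -0.48 (-0.87 to -0.12), and 181 CPM in 155 WT cells with TRB and 176 CPM in 2100 WT cells without, a ratio of 0.03. Median depth in cluster 6 was 8877 UMIs with TRB and 9751 UMIs without in KI, and 11127 UMIs with and 10105 UMIs without in WT.

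The share of cells with at least 1 UMI was compared after each cell had been thinned to 2000 UMIs. Tnfaip3 was then found in 20.04% of KI DN4 cells against 27.3% of WT DN4 cells, and in 17.7% of KI DN3 cells against 25.3% of WT DN3 cells. Nfkbia was found in 29.4% of KI DN4 cells against 30.9% of WT DN4 cells, and in 11.7% of KI DN3 cells against 8.71% of WT DN3 cells. Before thinning the Tnfaip3 shares were 46.0%, 57.8%, 40.1% and 55.5% in KI DN4, WT DN4, KI DN3 and WT DN3. From 39 to 97 cells per library were too shallow and were left out. No cell type here can be taken to lack these genes, so the share that free RNA alone would give is not known.

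The other genes of the pathway were described by lists chosen for their roles. Their called counts stand beside 4.01% of all genes tested called lower and 0.536% higher in KI DN4, and 2.16% lower and 0.811% higher in KI DN3. Of 18 further IκB proteins and negative regulators, 11 were measured in DN4, with 0 called higher and 2 called lower in KI and a median log2 ratio of -0.12. The 2 were Nfkbiz, with 10.1 CPM in KI DN4 against 20.4 CPM in WT DN4, and Usp18, a protease that restrains interferon signalling, with 14.3 CPM in KI against 21.9 CPM in WT. In DN3, 7 of the 18 were measured and none was called, with a median of -0.04. Nfkbie, the gene of IκBε, had 54.8 CPM in KI DN3 against 75.9 CPM in WT DN3, which is under 1.5-fold.

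Among 27 kinases and adaptors upstream of NF-κB, 1 was called lower in KI at each stage and none was called higher. It was Birc2, the gene of the ubiquitin ligase cIAP1, with 21.6 CPM in KI DN4 against 33.2 CPM in WT DN4 and 34.0 CPM in KI DN3 against 53.3 CPM in WT DN3. In this list 14 genes were measured in DN4, with a median log2 ratio of -0.26, and 13 in DN3, with a median of -0.06. The shares of all genes called lower were 4.01% in DN4 and 2.16% in DN3.

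Of 25 receptors and ligands of the TNF and costimulatory families, 7 were measured in DN4 and 6 in DN3, and Tnfsf11 was the 1 called lower at each stage. Tnfsf11, which encodes the RANK ligand, had 55.9 CPM in KI DN4 against 121 CPM in WT DN4, a log2 ratio of -1.11, and 148 CPM in KI DN3 against 252 CPM in WT DN3, a ratio of -0.77. The median of the list was -0.42 in DN4 and -0.22 in DN3, and 4.01% and 2.16% of all genes were called lower there. Cd28, a costimulatory receptor, had 122 CPM in KI DN4 against 166 CPM in WT DN4 without being called.

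Of 30 genes known as NF-κB targets, 13 were measured in DN4, and 2 were called lower and 0 higher in KI, with a median of -0.47. They were Gadd45b, a stress-induced survival gene, with 10.3 CPM in KI DN4 against 21.4 CPM in WT DN4, and the chemokine gene Ccl5, with 12.1 CPM in KI DN4 against 23.7 CPM in WT DN4. Ccl5 is also among the NK, innate lymphoid and NKT markers, and 335 of its 367 UMIs in KI DN4 and 380 of its 389 UMIs in WT DN4 came from cluster 5, which held 12.7% of KI DN4 cells against 21.9% of WT DN4 cells. Within cluster 5 it had 237 CPM in KI against 230 CPM in WT, a log2 ratio of 0.05 (-0.17 to 0.26). Gadd45b had 22.6 CPM in KI against 45.5 CPM in WT in cluster 2, and 56.6 CPM in KI against 64.7 CPM in WT in cluster 5. In DN3, 10 were measured and none was called, with a median of -0.22. The lists share some genes, such as Nfkbie, so their counts are not independent. The medians of the 4 lists are to be read against all-gene medians of -0.05 in DN4 and 0.00 in DN3. Their called counts are to be read against all-gene shares of 4.01% lower and 0.536% higher in DN4, and 2.16% and 0.811% in DN3.

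Immediate-early and handling-stress genes were also lower in the KI libraries, where 4.01% of all genes were called lower in DN4 and 2.16% in DN3. Of 27 such genes, 19 were measured in DN4, with 7 called lower, 0 higher and a median of -0.52, and 20 were measured in DN3, with 9 called lower, 0 higher and a median of -0.39. Junb, a member of the AP-1 family, had 623 CPM in KI DN4 against 1525 CPM in WT DN4 and 1495 CPM in KI DN3 against 3192 CPM in WT DN3. The summed level of the list was 5517 CPM in KI DN4 against 7977 CPM in WT DN4, and 7181 CPM in KI DN3 against 10108 CPM in WT DN3. It was lower in KI in each of the 6 cluster comparisons too, for instance with 8263 CPM in KI against 11275 CPM in WT in clusters 0 and 1 of DN3. Hspa1b of this list was at 0 in WT DN4. Tnfaip3 moved with this list in its direction, and the part of the list in the Tnfaip3 difference was not tested.

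Between stages the lists held genes called in both directions. The shares of all genes called were 7.37% higher and 13.2% lower in KI, and 8.55% higher and 10.7% lower in WT. In KI, 2 of 11 measured targets were called higher in DN4 and 6 lower, with a median of -0.66, and in WT 3 of 14 were called higher and 5 lower, with a median of -0.22. Ccr7, a chemokine receptor of maturing T cells, had 25.3 CPM in KI DN4 against 1.37 CPM in KI DN3 and 24.1 CPM in WT DN4 against 1.32 CPM in WT DN3. Ccl4, a chemokine gene, had 3.36 CPM in KI DN4 against 27.6 CPM in KI DN3. Among receptors and ligands, Tnfrsf9, the gene of the costimulatory receptor 4-1BB, had 26.4 CPM in KI DN4 against 2.43 CPM in KI DN3 and 39.3 CPM in WT DN4 against 3.66 CPM in WT DN3, and Tnfsf11 was called lower in DN4 in both genotypes. Cluster 5 of DN4 held Tnfrsf9 at 391 CPM in KI and 303 CPM in WT, and cluster 2 held Ccr7 at 130 CPM in KI and 85.5 CPM in WT.

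Regulators upstream and downstream of IKK also differed between the stages. Nfkbie had 23.1 CPM in KI DN4 against 54.8 CPM in KI DN3 and 32.0 CPM in WT DN4 against 75.9 CPM in WT DN3, and was called lower in DN4 in both. Inside clusters 3 and 4 it had 22.4 CPM in KI DN4 against 34.4 CPM in KI DN3 and 28.9 CPM in WT DN4 against 47.5 CPM in WT DN3. The inhibitor genes Nfkbie and Nfkbia were therefore on opposite sides of DN3 in each genotype. Prkcq, the gene of protein kinase Cθ, which acts downstream of antigen receptors, had 66.1 CPM in KI DN4 against 39.2 CPM in KI DN3 and 87.0 CPM in WT DN4 against 39.5 CPM in WT DN3, and was called higher in both. Inside clusters 3 and 4 it had 22.0 CPM in KI DN4 against 25.1 CPM in KI DN3 and 19.3 CPM in WT DN4 against 21.7 CPM in WT DN3, while cluster 2 of DN4 had 233 CPM in KI and 253 CPM in WT. Ltb, a lymphotoxin gene, had 109 CPM in KI DN4 against 51.4 CPM in KI DN3 and 124 CPM in WT DN4 against 51.1 CPM in WT DN3, with 425 CPM in KI and 319 CPM in WT in cluster 2 of DN4. Of the negative regulators, 1 of 8 measured was called higher and 1 lower in KI, with a median of 0.11, and 2 of 10 higher and 1 lower in WT, with a median of 0.44. All-gene shares were 7.37% higher and 13.2% lower in KI, and 8.55% and 10.7% in WT.

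The genes whose levels ran most like those of the members were ranked by Pearson correlation over 19 groups of cells, each a deposited cluster in 1 library, among 7835 genes. These groups share libraries and depth, so the values are a description. Tnfaip3 ran most like Csrnp1, with a correlation of 0.987, followed by Ablim1 and Bend5. Nfkbia ran most like Cxcr6 at 0.976, Rel like Dgka at 0.9855, Relb like Chn2 at 0.975, Nfkb2 like Cyp4f13 at 0.968, Nfkb1 like C1ql3 at 0.954 and Rela like Aup1 at 0.943. Among the members themselves, Relb and Nfkbia had 0.919, Rela and Nfkb2 0.899, Rel and Nfkbia 0.874, and Nfkb2 and Tnfaip3 0.858, while Rela and Nfkbia had 0.179.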

How the data were processed

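The deposited UMI counts per gene and cell were used with the authors' deposited clusters and cell cycle phases. Cell Ranger 3.1.0 and 6.0.1 and the mm10 build are named per the submitters' processing notes; which version made which file is not given in the sources used here. TRB contigs came from the deposited contig tables, which hold counts per contig per the file headers. The 7 genes and all lists were chosen with earlier results of these data known. UMI counts were summed per library or cluster (at least 50 cells), scaled to CPM and compared as ratios with exact 95% intervals over all genes with 20 CPM in either library. In each list up to 4 genes a comparison were named, those with the largest ratios whose interval excluded no change. Scrublet marked 73 cells (0.713%) as doublets, which were left in; it marked 0.139% of WT DN3 cells, so doublets may remain. Alternatives were TMM scaling, other expression minimums, a 2-fold threshold, the mean over cells, and cells left out. The ratio step was tested on simulated data. Python 3.11.15, numpy 2.4.6, scipy 1.17.1, pandas 2.3.3, scanpy 1.11.5, R 4.3.3 and edgeR 4.0.16 were used.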

Additional observations from a re-analysis of the deposited data

Results flagged for a closer look

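For Nfkb1 the log2 ratio of KI to WT was -0.32 in DN4 and 0.26 in DN3, so the single pair of libraries at each stage lay on opposite sides of no change. The DN4 ratio minus the DN3 ratio was -0.58, with a counting interval of -0.78 to -0.38. For Nfkbia the ratio was -0.26 in DN4 and 0.13 in DN3, and the DN4 ratio minus the DN3 ratio was -0.38 (-0.51 to -0.26). Within DN3, Nfkbia had a ratio of 0.44 in clusters 0 and 1 and of -0.35 in clusters 3 and 4. These differences between groups were not tested, because each group is 1 library.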

How the results depend on the processing

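No paired analysis was possible because each group has 1 library, and for the same reason no replicate could be left out. Of the 364 values recomputed for the members, 324 kept their size within counting error, 39 moved, and 1 called value changed sign. That value was Rel, DN4 against DN3 in WT, at -0.49 with clusters 2, 5 and 7 left out. A 2-fold threshold, a 5 CPM minimum or no minimum changes calls and not ratios, so the 28 values under each could not move. The 28 with any TRB contig in place of a productive one came from the same cells and could not move either. With clusters 2, 5 and 7 left out, 9 values kept their size, 18 moved and 1 changed sign. Values that were not called also changed sign, among them Rel in DN4 against DN3 in KI (-0.36 with those clusters left out) and Tnfaip3 in DN4 against DN3 with the mean over cells (0.36 in KI, 0.33 in WT). Tnfaip3 in KI against WT kept its sign throughout; with the mean over cells (-0.55 in DN4, -0.58 in DN3), a 2-fold threshold, or clusters 2, 5 and 7 left out of DN4, 0 members were called. In DN4 against DN3, 4 members were called in KI with a 5 CPM minimum, no minimum or the mean over cells, and in WT 5 with the mean over cells and 1 at 2-fold. In cluster 5, 1 member (Nfkbia) was called with the mean over cells. Genes called in KI against WT in DN4 numbered 254, against 654 with a 5 CPM minimum, 1430 with none, 37 at 2-fold and 146 without clusters 2, 5 and 7; in DN3 172, against 389, 930 and 40 under the first 3; in DN4 against DN3 in KI 1195, against 2221, 3905 and 450; in WT 1155, against 2161, 3610, 493 and 1952; in cluster 5 478, against 868 with the mean over cells. The cause was not tested. TMM scaling moved the share of calls that were higher to 37.4% in KI against WT in DN4, against 11.8%, and to 50.6% in DN4 against DN3 in KI, against 35.9%; Tnfaip3 then had -0.59 in DN4. Leaving out clusters 8 and 9, an alternative chosen after seeing the data, or the marked doublets changed no member's value beyond counting error. Depth limits Rel, Relb and Nfkb2 most.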
